A study of Mus musculus with 9 samples.

Results

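The Integrator is a nuclear complex that binds RNA polymerase II early in transcription, cleaves the nascent RNA and removes phosphates from the polymerase. It forms the 3′ ends of the small nuclear RNAs used in splicing and ends transcription early at many protein-coding genes. Its subunits fall into a backbone, a cleavage module, a phosphatase module that brings in protein phosphatase 2A, and peripheral modules. The transcripts of 10 subunits, Ints1 to Ints10, were read through every probe that the platform annotation assigns to one of them, which gave 26 of the 45281 probes on the array for 10 of 19057 named genes. The set was chosen on the genotype difference itself, because an Ints6 probe ranked near the top of the genes that read lower in the knockout while other Ints6 probes did not. The genotype differences of the subunits are therefore given as descriptions with no test.

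The arrays measured LSK cells of mouse bone marrow, which lack lineage markers, carry Sca-1 and Kit and include the blood stem cells and early progenitors. All mice were C57BL/6 males of 12 weeks that had received 5-fluorouracil, a drug that kills dividing cells, at 150 µg/g, and the cells were sorted 6 days later. Wild-type (wt) mice gave 5 arrays and Socs2-/- mice, which lack a suppressor of cytokine signalling, gave 4, with no group that went without the drug. The labels do not say whether an array came from 1 mouse or a pool, nor which part of Socs2 was deleted, so p-values reflect only array-to-array spread, part of which may be technical. Values are the authors' log2 intensities, and 7.5 served as the level above which a probe was counted as bright. A probe passed the filter on dim probes if 4 or more of the 9 arrays read above 7.5, so bright values in 1 genotype alone could suffice.

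Knockout arrays 1 and 2 stood apart from the others. They had 31.1% and 31.0% of probes above 7.5, against 34.3% to 35.4% on the other 7, and correlated with the others at a median r of 0.68 and 0.65, against 0.78 to 0.82 for those 7. Every difference below was also taken without them. Socs2, the targeted gene, averaged 9.67 ± 0.40 (SD, n = 5) over wild-type and 6.71 ± 0.10 (SD, n = 4) over knockout arrays at its brighter probe, and its genotypes did not overlap. All 8 LSK markers that had a probe passed, Ly6a (Sca-1) not being analysed here. The mean level of the erythroid markers ran from 6.97 to 8.16 on wild-type and from 7.55 to 9.75 on knockout arrays. Of the 4 with a probe, only Hba-a1, which encodes alpha-globin, averaged higher in the knockout (10.79 against 7.42), and it exceeded 7.5 on each of the 4 knockout arrays and on 1 wild-type array. The means of Klf1 (7.38 against 7.57), Alas2 (8.0 against 8.08) and Epor (7.01 against 7.04) were level or lower, and the part of these transcripts in the results was not tested. Both B-cell markers with a probe (Ms4a1 and Pax5) were above 7.5 on no array. Of the T-cell markers, Cd8a was above it on all 9 arrays, Cd4 on 7, Cd3e on 5 and Cd3g on 1. Means of the 5 granulocyte and monocyte markers (7.12 to 8.97 in wild type and 7.36 to 8.52 in the knockout), of the 4 T-cell markers (7.45 to 8.50 and 7.42 to 8.54) and of the 3 megakaryocyte markers (9.58 to 10.35 and 9.55 to 10.62) overlapped between the genotypes. Single granulocyte and monocyte markers went both ways. Mpo (10.21 in wild type, 8.64 in the knockout) and S100a8 (8.27 and 7.59) averaged lower in the knockout. Ltf (7.03 and 7.71), Itgam (7.17 and 7.55) and Camp (7.69 and 7.95) averaged higher.

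The promoters of Ints6 and Ints1 are shown because these genes open the account of values. Among the probes standing for each gene Ints6 had the most negative difference, while Ints1 and Ints10 (1.11 each) were level at the positive end. Each line holds 250 bases before and 50 after the annotated start, from RefSeq on GRCm38.p6, for Ints6 the minus strand of chr14:62761063-62761362 and for Ints1 the minus strand of chr5:139775629-139775928. Capitals mark matches on either strand to the GC box GGGCGG, the ETS core CCGGAA, the STAT motif TTCNNNGAA or the TATA motif TATAAA, none of which overlapped another here.
Ints6: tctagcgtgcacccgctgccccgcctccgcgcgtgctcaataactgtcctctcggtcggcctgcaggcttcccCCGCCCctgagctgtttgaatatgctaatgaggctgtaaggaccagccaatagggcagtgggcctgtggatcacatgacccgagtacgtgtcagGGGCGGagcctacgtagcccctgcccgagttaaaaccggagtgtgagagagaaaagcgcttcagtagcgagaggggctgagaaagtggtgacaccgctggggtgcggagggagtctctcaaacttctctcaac
Ints1: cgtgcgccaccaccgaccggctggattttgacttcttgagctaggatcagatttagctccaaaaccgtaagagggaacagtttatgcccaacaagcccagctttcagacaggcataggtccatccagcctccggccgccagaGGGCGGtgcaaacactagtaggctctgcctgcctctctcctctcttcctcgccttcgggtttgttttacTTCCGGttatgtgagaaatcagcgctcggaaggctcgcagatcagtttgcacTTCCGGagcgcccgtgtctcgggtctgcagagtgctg

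Among the members, 6 had a promoter in the RefSeq table: Ints1, Ints2, Ints3, Ints4, Ints6 and Ints7. Those 6 windows held a median of 21 CpG dinucleotides, against 7 over all 32851 promoter windows of the table, and a median of 58.2% G and C against 52.7%. The GC box was in 3 of the 6 (Ints1, Ints2 and Ints6), against 35.7% of all windows. The ETS core was in 2 of the 6 (Ints1 and Ints3), against 14.9%. The STAT motif, the consensus of the factors downstream of the receptors that Socs2 restrains, was in 0 of the 6, against 8.3% of all windows, and the TATA motif was in 0 of the 6, against 13.6%. These matches describe letters in the windows and were not tested.

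Ints6 recruits the phosphatase to the Integrator and lies on chromosome 14 (62676325 to 62761163 on GRCm38.p6). It had 4 probes and all 4 passed. Its brightest probe, ILMN_1217716, read 9.68, 10.76, 9.97, 9.77 and 10.52 on wild-type arrays 1 to 5 and 8.68, 7.05, 7.44 and 6.75 on knockout arrays 1 to 4. The genotypes did not overlap at this probe, and 3 of the 4 knockout values were at or below 7.5. The group values were 10.14 ± 0.47 (SD, n = 5) and 7.48 ± 0.85 (SD, n = 4), a log2 difference, knockout minus wild type, of -2.66 (SE 0.48 in the fit over probes). The difference lay between -3.06 without knockout array 1 and -2.41 without knockout array 4, and it was -3.05 without knockout arrays 1 and 2. In the fit over genes this probe was at position 8 when the genes with a negative difference are ordered by unadjusted p, and it is this order that brought Ints6 into view.

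The other 3 Ints6 probes gave smaller values. Probe ILMN_2451146, annotated like the brightest one to the transcript NM_008715, read 7.64, 7.96, 8.43, 8.0 and 7.38 in wild type and 6.80, 6.55, 7.60 and 6.68 in the knockout. It was lower on average in the knockout, with a difference of -0.97 (SE 0.40), but knockout array 3 lay within the wild-type range. Probe ILMN_3161409, with the same annotated transcript, read 8.34, 7.71, 7.57, 7.57 and 8.48 in wild type and 8.51, 8.28, 7.43 and 7.96 in the knockout. Its genotypes overlapped, and the difference was 0.11 (SE 0.40), which became -0.24 without knockout arrays 1 and 2. Probe ILMN_1220343, annotated to the cDNA clone AK053385, read 8.83, 8.02, 10.13, 8.99 and 7.21 in wild type and 6.91, 6.96, 7.58 and 10.67 in the knockout. Knockout array 4 had the highest value of all 9 at this clone probe and the lowest of all 9 at the brightest probe. The clone probe's difference was -0.60 (SE 0.83), or -1.48 with knockout array 4 left out and 0.49 without arrays 1 and 2.

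**Figure D1:**
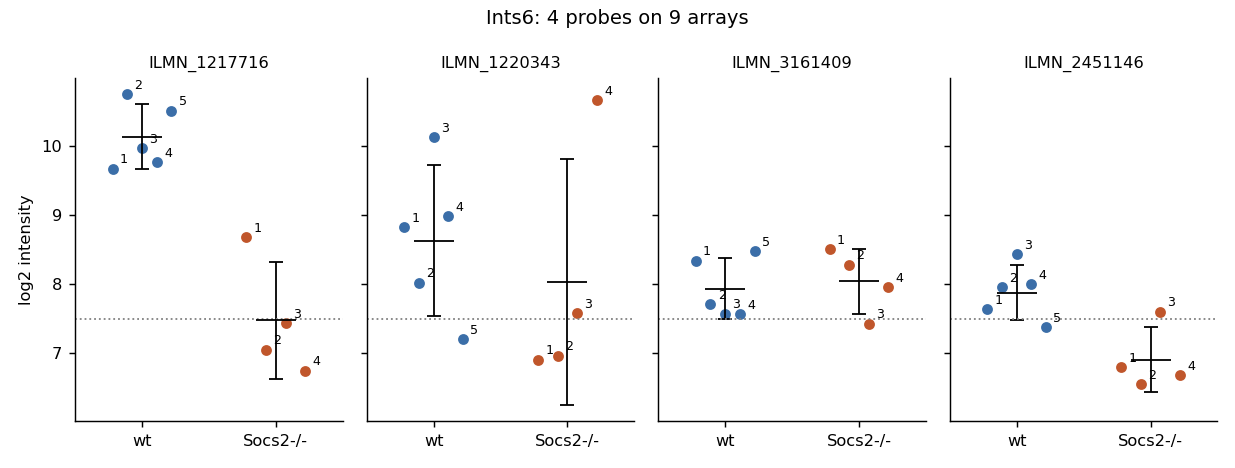
Log2 intensity (vertical axis) of the 4 Ints6 probes on the 5 wt and 4 Socs2-/- arrays, 1 point per array with its replicate number; bars are the mean and SD and the dotted line is 7.5. The genotypes are apart at ILMN_1217716 (10.14 against 7.48) and overlap at the other 3 probes; levels of different probes are not comparable.

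Probes of 1 gene often disagreed in these data. Of 3191 genes with at least 2 passing probes, 44.4% had differences of both signs, and of the 239 genes with 4 passing probes 66.1% did, Ints6 among them. The span from the lowest to the highest probe difference was 2.77 for Ints6, against a median of 1.32 over those 239 genes, of which 95.8% had a smaller span. Ints6 was taken up because its probes differ in this way, so its place among those genes is a description and no finding. Over the 9 arrays the brightest Ints6 probe had a Pearson r of 0.72 with ILMN_2451146, -0.037 with the clone probe and -0.0054 with ILMN_3161409. Within genotypes, with each group's mean removed, the first of these was -0.0045. Over all 7110 pairs of passing probes of the same gene the median r over 9 arrays was 0.26. These correlations share arrays and depth and are descriptions only.

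**Figure D2:**
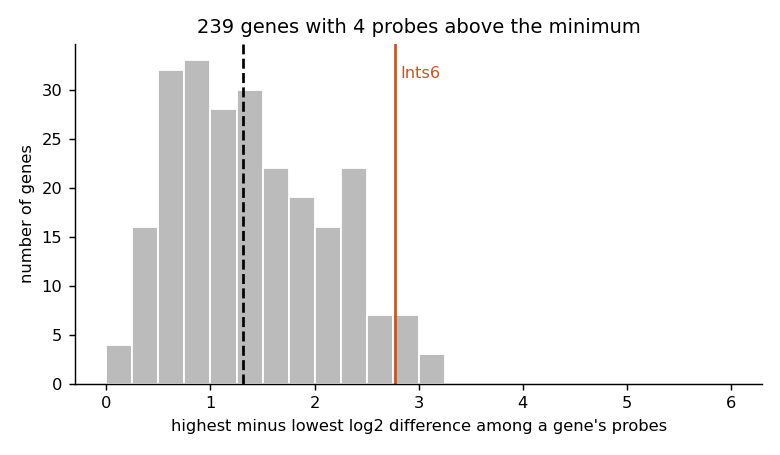
Number of genes (vertical axis) by the span between the highest and lowest log2 difference among a gene's probes (horizontal axis), for the 239 genes with 4 passing probes. The dashed line is the median of 1.32 and the solid line is Ints6 at 2.77.

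The backbone of the complex is built on Ints1, its largest subunit, with Ints2 and Ints7. Ints1 had 1 probe, which read 8.76, 9.69, 9.51, 8.97 and 10.78 in wild type and 10.69, 10.12, 10.33 and 11.47 in the knockout. The knockout values were above 4 of the 5 wild-type values and overlapped with wild-type array 5. Group values were 9.54 ± 0.79 (SD, n = 5) and 10.65 ± 0.59 (SD, n = 4), a difference of 1.11 (SE 0.50), or 0.84 when knockout array 4 was left out, 1.42 when wild-type array 5 was, and 1.36 without knockout arrays 1 and 2. This was of the opposite sign to the brightest Ints6 probe, but of the same sign as the passing Ints6 probe ILMN_3161409 (0.11).

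Ints2 had 3 probes, of which 2 passed. The brighter, ILMN_2664494, read 9.24, 8.20, 8.96, 8.29 and 8.14 in wild type and 7.11, 6.82, 7.26 and 9.57 in the knockout, a difference of -0.87 (SE 0.58). Knockout arrays 1 to 3 were below every wild-type array and knockout array 4 was above them all. The difference was -1.50 with knockout array 4 left out and -0.15 without arrays 1 and 2. The second passing probe (ILMN_1239634, a clone probe) had a difference of -0.42 (0.42 without knockout arrays 1 and 2), with knockout array 3 at 9.75 and the other 3 knockout arrays from 6.44 to 6.89, and the third was above 7.5 on no array. Ints7 had 3 probes, of which 1 passed, ILMN_2726174, with a wild-type mean of 10.35 ± 0.67 (SD, n = 5) and a knockout mean of 10.50 ± 0.97 (SD, n = 4). Its values ran from 9.53 to 11.28 and from 9.66 to 11.84, a difference of 0.14 that turned to -0.30 without knockout array 1. Its 2 clone probes were above 7.5 on 2 arrays and on 1.

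Ints5 and Ints8 form the shoulder between backbone and phosphatase. Ints5 had 2 passing probes, and its brighter one, ILMN_1227693, read 10.82, 11.76, 11.61, 11.61 and 12.32 in wild type and 12.42, 12.40, 11.84 and 11.83 in the knockout. All 4 knockout values were above 4 of the 5 wild-type values, and the difference was 0.50 (SE 0.41), or 0.30 with wild-type array 1 left out and 0.21 with knockout arrays 1 and 2 left out. The dimmer probe ILMN_2952587 differed by 0.11 (SE 0.52), which turned to -0.44 without those 2 knockout arrays, and both probes followed each other over the arrays with r = 0.71 (n = 9). Ints8 was the 1 member with no passing probe. Its probes were above 7.5 on 1 array (wild-type array 4, at 8.71) and on 2 (wild-type array 1 at 8.33 and knockout array 1 at 7.60), so no difference is given for it.

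The cleavage module consists of Ints4, Ints9 and the RNA endonuclease Ints11, which is outside the set of 10. Ints4, the scaffold of the module, had 1 probe, which read 8.41, 9.39, 9.64, 8.86 and 9.87 in wild type and 11.38, 9.36, 8.04 and 9.05 in the knockout. The knockout arrays held both the highest and the lowest of the 9 values, and the difference of 0.23 (SE 0.63) became -0.42 when knockout array 1 was left out and -0.69 when arrays 1 and 2 both were. Ints9, a catalytically inactive relative of Ints11, had 3 probes, of which ILMN_2767949 passed with 4 arrays above 7.5. That probe had a wild-type mean of 7.51 ± 0.56 (SD, n = 5) and a knockout mean of 7.56 ± 0.77 (SD, n = 4). Of the other Ints9 probes, ILMN_2990144 exceeded 7.5 on 0 of the 5 wild-type arrays and read 6.87, 10.23, 7.32 and 8.11 in the knockout. This gives a level at least 1.55-fold higher in the knockout, taking 7.5 as the wild-type value. That bound rests on knockout array 2, without which the log2 difference fell from 0.86 to 0.16. The third probe, ILMN_1213745, had the opposite sign (-0.32) and exceeded 7.5 on 2 wild-type and 0 knockout arrays.

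Ints3 belongs both to the Integrator and to the SOSS complex, which binds single-stranded DNA at breaks. It had 4 probes, of which 2 passed. Probe ILMN_2711570 read 8.87, 10.62, 9.43, 8.43 and 9.39 in wild type and 11.15, 8.89, 9.08 and 9.5 in the knockout, a difference of 0.31 (SE 0.59) with overlapping genotypes that became -0.19 without knockout array 1. Probe ILMN_1229435 differed by 0.56 (SE 0.86), and its wild-type values spanned 7.38 to 10.95. That difference was 0.045 when knockout array 3 was left out, 1.30 when array 2 was, and 1.53 with knockout arrays 1 and 2 left out. The clone probe ILMN_1224240 did not pass, yet its genotypes were apart: wild type read 6.85, 6.98, 7.02, 7.16 and 7.05 and the knockout 8.34, 9.05, 9.0 and 7.26. It exceeded 7.5 on 0 wild-type arrays and on knockout arrays 1 to 3. Its mean was at least 1.88-fold higher in the knockout, taking 7.5 as the wild-type value. The log2 difference of 1.40 was 1.12 without knockout arrays 1 and 2. Among probes that passed, 0.893% were apart with the knockout higher, and the share among dim probes was not taken. The fourth probe, ILMN_2697279, was above 7.5 on no array and differed by -0.08.

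Ints10 belongs to an arm of the complex with Ints13 and Ints14. Its passing probe ILMN_2649174 read 9.92, 8.81, 7.79, 8.13 and 8.57 in wild type and 6.87, 10.80, 10.22 and 11.11 in the knockout. Knockout arrays 2 to 4 were above every wild-type array and knockout array 1 was below them all. The difference was 1.11 (SE 0.82), or 0.65 without knockout array 4 and 2.07 without knockout array 1. Of its clone probes, which did not pass, ILMN_1234132 exceeded 7.5 on 0 of the 4 knockout and 3 of the 5 wild-type arrays. At that probe the mean was at least 1.42-fold lower in the knockout, taking 7.5 as the knockout value, the opposite direction to the passing probe. The genotypes overlapped there, with wild-type arrays 4 and 5 at 7.15 and 7.20 and knockout array 3 at 7.26. The log2 difference of -0.96 was -0.72 without wild-type array 3. The other clone probe differed by 0.16.

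**Figure D3:**
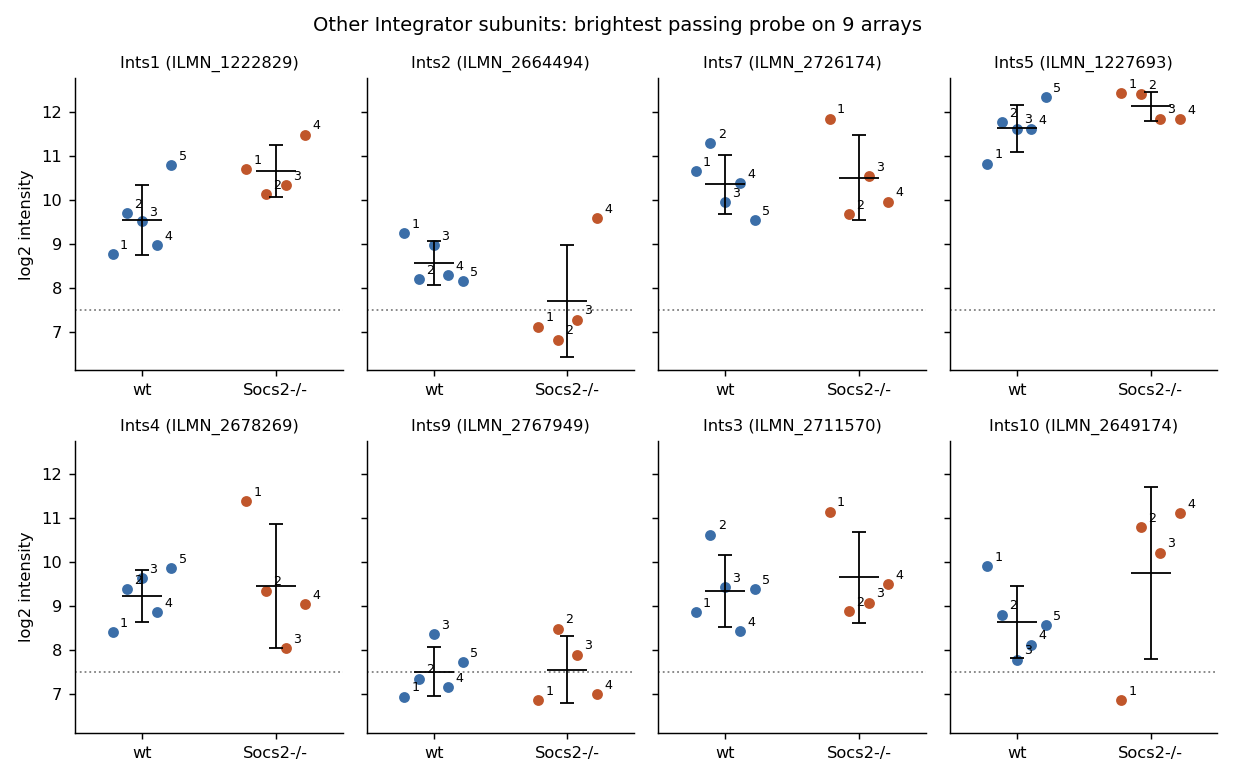
Log2 intensity (vertical axis) of the brightest passing probe of 8 subunits on the 5 wt and 4 Socs2-/- arrays, 1 point per array with its replicate number; bars are the mean and SD and the dotted line is 7.5. The genotypes overlap in all 8 panels; knockout array 1 lies apart in Ints10 (6.87) and knockout array 4 in Ints2 (9.57).

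Across the complex, 15 of the 26 probes passed, from 9 of the 10 genes, 13 of them annotated to a RefSeq transcript and 2 to a cDNA clone. Differences were below 0 for 5 of the 15 and above 0 for 10, where 59.8% of the 13333 named probes tested were below 0. Their median was 0.11, against -0.19 over all probes tested, which had passed the same filter. Over all 26 probes, dim ones included, the median was also 0.11, and the like median over all probes was not taken. With the brightest probe for each gene, 2 of 9 were below 0 (Ints2 and Ints6), where 59.5% of genes were, and the median was 0.23, against -0.18 over all 8543 genes tested. With no filter on dim probes the all-gene median was -0.0076 and that of the members 0.27. The members entered from this same contrast, so nothing is read from the counts or medians. The genotypes did not overlap in 1 of the 15 passing probes, the brightest of Ints6, where 2.63% of all probes tested were apart with the knockout lower and 0.893% with it higher. The sign of the difference changed in 8 of the 15 when knockout arrays 1 and 2 were left out and in 6 of the 15 when some single array was left out. The part of these arrays' lower signal in the differences was not tested.

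**Figure D4:**
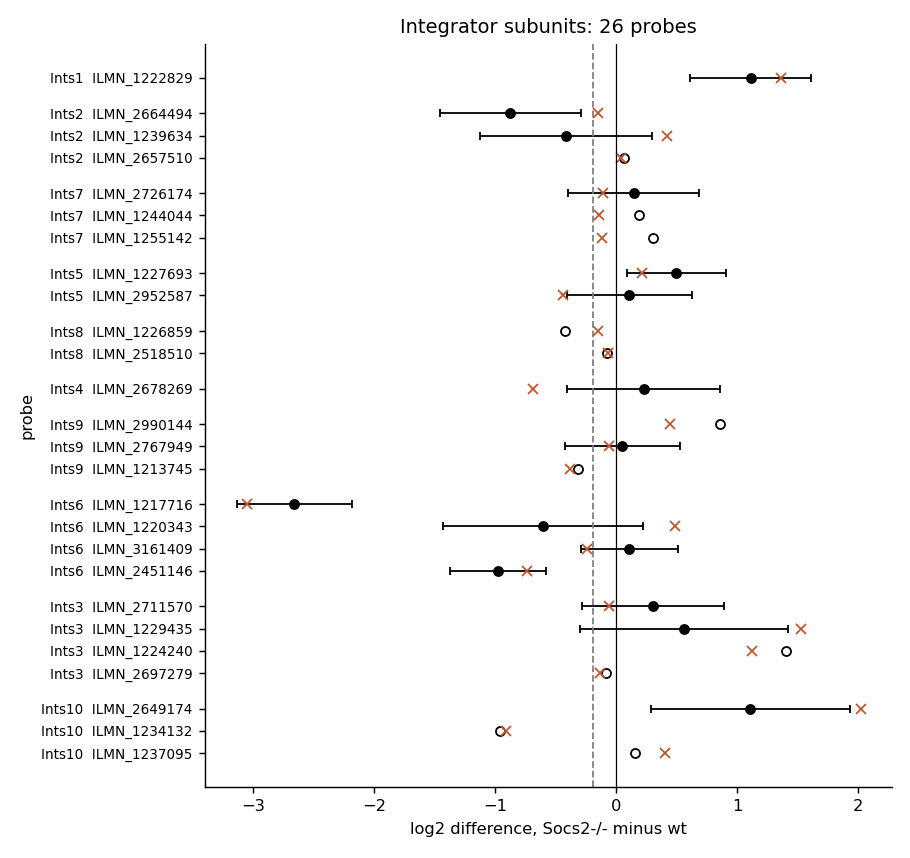
Log2 difference, Socs2-/- minus wt (horizontal axis), of the 26 probes by gene; filled points passed the filter and carry the SE of the limma fit over probes, open points did not pass, and crosses are the differences without knockout arrays 1 and 2. The brightest Ints6 probe lies at -2.66 and Ints1 at 1.11. The dashed line is the median of -0.19 over all probes tested, which had passed the filter, so it is no reference for the open points.

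The genes around the complex were not members and were tested with limma over all 8543 genes, of which 1, Socs2, passed an adjusted p under 0.05 (0.0117%). At an unadjusted p under 0.05, 7.87% of all genes were lower and 2.29% higher in the knockout. The lower genes made up 77.4% of those at that level, but 67.0% with each array centred on its median, which moved the median difference of all genes from -0.18 to -0.061, and 53.7% without knockout arrays 1 and 2. With no filter on dim probes the lower share was 61.7% and the all-gene median -0.0076. Over genes above 7.5 on all 9 arrays they were 61.9% and -0.030. The all-gene median of -0.18 thus depends on the filter as well. Of 82 entries in 6 lists of partners and related machinery, 68 genes were tested, and 0 passed the adjusted threshold in limma, the one tool run. At an unadjusted p under 0.05, 3 were lower (4.41% of the 68) and 0 higher, a share no larger than that of all genes. The 3 were Nabp1, Ice1 and Ell3. Nabp1 and Ell3 passed the filter through the wild type, with 5 and 4 wild-type arrays above 7.5 and 1 knockout array each. Their place among the lower genes is therefore no independent support. Differences were below 0 for 50 of the 68, where 59.5% of all genes were, with a median of -0.43 against -0.18 over all genes. Without knockout arrays 1 and 2, 20 of the 68 changed sign and 42 were below 0, and 52 changed sign or moved by more than 1.5 times.

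Among the remaining Integrator subunits, Ints11, Ints13 and Ints14 were tested and 0 of 3 passed. Ints14 had 2 passing probes, annotated to different transcripts. Probe ILMN_3124226 (NM_001077631) read 9.41, 7.71, 7.64, 7.83 and 7.89 in wild type and 6.88, 9.55, 10.95 and 10.53 in the knockout, a difference of 1.38 (SE 0.78 in the fit over genes, limma adjusted p = 0.563). At this probe, as in Ints10, knockout array 1 was the lowest of the 9 and knockout arrays 2 to 4 were the highest. The difference was 2.25 without knockout array 1 and 0.89 without knockout array 3. The second Ints14 probe, ILMN_1217039 (NM_175153), differed by -0.12 and lacked this order, with wild-type array 1 the highest (10.45). In Ints13, also of the arm, knockout array 1 was instead the highest (10.58) and knockout array 4 the lowest (7.15) at the brightest probe. Outside the arm, knockout array 1 was also the lowest in Ppp2cb (6.97). Ints11, the endonuclease, differed by 0.51 (limma adjusted p = 0.749, and 0.10 without knockout array 2), with knockout arrays 2 and 3 at 9.38 and 9.07 and the other 2 at 6.76 and 7.41. Ints13 differed by -0.41 (limma adjusted p = 0.839), by 0.24 with knockout array 4 left out and by -1.41 without arrays 1 and 2, and its other passing probes by -0.57 and -0.71, all 3 with overlapping genotypes. Ints12, a subunit bound to Ints1, was above 7.5 on 2 arrays and was not tested.

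Partners of the phosphatase module and of SOSS gave 0 of 9 past the adjusted threshold, 1 past the unadjusted one (lower, as were 7.87% of all genes), and a median difference of -0.36. Nabp1, the single-stranded DNA binding subunit that Ints3 holds in SOSS, read 10.09, 8.30, 9.26, 8.32 and 8.49 in wild type and 7.39, 7.02, 7.77 and 7.11 in the knockout. The genotypes did not overlap, as in 2.72% of all genes with the knockout lower. The difference was -1.57 (SE 0.45, limma unadjusted p = 0.0056, adjusted p = 0.331) and stayed between -1.72 and -1.27 with single arrays left out, but 3 of the 4 knockout values were at or below 7.5 and its other 2 probes did not pass. Nabp1 passed the filter only through the wild-type arrays, so its p is taken after a selection for bright wild-type values. Nabp2, the alternative subunit, differed by -0.36 (limma adjusted p = 0.887) and Inip, the small SOSS subunit, by -0.86 (limma adjusted p = 0.756). Second passing probes differed by -0.26 for Nabp2 and by -1.44 for Inip (SE 0.58 in the fit over probes). That Inip probe exceeded 7.5 on 4 wild-type arrays and 1 knockout array. The scaffold subunits of protein phosphatase 2A, Ppp2r1a and Ppp2r1b, differed by -1.18 and -1.06 (limma adjusted p = 0.618 and 0.531), and a second Ppp2r1b probe by 0.55. Its catalytic subunits Ppp2ca and Ppp2cb differed by 0.14 and -0.21 (limma adjusted p = 0.937 and 0.932). Wdr73, which binds the Ints9 and Ints11 pair, differed by -0.14 (limma adjusted p = 0.925). Without knockout arrays 1 and 2 the sign turned for Nabp2 (0.66), Ppp2cb (0.47) and Wdr73 (0.13), and Ppp2r1a came to -0.55.

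Ints6l, the paralogue of Ints6 on the X chromosome, had 2 passing probes. The brighter on average over all arrays, ILMN_2692041, read 7.40, 9.72, 7.58, 10.21 and 9.52 in wild type and 11.58, 6.81, 8.26 and 8.59 in the knockout. Its genotypes overlapped, and the difference was -0.076 (SE 0.94, limma adjusted p = 0.982), or 0.59 with knockout array 2 left out and -0.46 without both it and array 1. The second probe, ILMN_1224487, read 8.98, 9.67, 8.93, 10.02 and 10.14 in wild type and 9.89, 6.83, 7.37 and 7.37 in the knockout. Knockout arrays 2 to 4 were below every wild-type array while array 1 lay among them, and the difference was -1.68 (SE 0.62 in the fit over probes), where 0 of 13333 probes passed the adjusted threshold.

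The wider machinery was read from 4 lists, in each of which 0 genes passed the adjusted limma threshold. Of all genes, 59.5% were below 0 and 7.87% were lower at an unadjusted limma p under 0.05. Pausing and elongation factors had 16 of 22 below 0 and a median of -0.56, with 1 past the unadjusted threshold (lower). The median was -0.12 without knockout array 2, -0.16 without knockout arrays 1 and 2, and 0.16 over genes above 7.5 on all 9 arrays. The elongation factor gene Ell3 had -1.46 (SE 0.61, limma adjusted p = 0.473), the scaffold gene Aff1 -1.48 (limma adjusted p = 0.497) and Larp7, which binds and stabilises 7SK RNA, -0.81 (limma adjusted p = 0.566, and -0.12 without knockout arrays 1 and 2). RNA polymerase II subunits had 6 of 9 below 0 and a median of -0.35, with 0 at an unadjusted p under 0.05. Polr2m differed by -0.61, Polr2f by -1.08 and Polr2g by -1.22 (limma adjusted p = 0.591, 0.596 and 0.630). The genotypes of Polr2m did not overlap, but its lowest wild-type value (11.08) was close to its highest knockout value (11.06). With Nabp1 it was 1 of 2 such genes among the 68 (2.94%, against 2.72% of all genes), and its difference was -0.27 without knockout arrays 1 and 2, while that of Polr2g was -0.24 without knockout array 2. Cleavage and polyadenylation factors, which make the 3′ ends of messenger RNAs, had 15 of 19 below 0 and a median of -0.43, with 0 at an unadjusted p under 0.05. Fip1l1 differed by -1.79, Rbbp6 by -1.17 and Wdr33 by -0.58 (limma adjusted p = 0.516, 0.623 and 0.646). Without knockout arrays 1 and 2 Fip1l1 differed by 0.093, Rbbp6 by -0.24, and the list median was 0.061.

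Genes for the transcription of small nuclear RNAs, whose 3′ ends the Integrator cleaves, had 4 of 6 below 0, a median of -0.54, and 1 past the unadjusted threshold (lower). The shares over all genes were 59.5% below 0 and 7.87% lower at that threshold. Ice1, the scaffold of the little elongation complex at these genes, had a wild-type mean of 10.56 ± 0.85 (SD, n = 5) and a knockout mean of 8.89 ± 1.02 (SD, n = 4). Its difference was -1.67 (SE 0.59, limma adjusted p = 0.415), or -1.11 without knockout arrays 1 and 2. Snapc4 and Snapc3, of the complex that binds small nuclear RNA promoters, differed by -0.77 and -1.24 (limma adjusted p = 0.593 and 0.619), or by -0.31 and -0.84 without knockout arrays 1 and 2. The size of differences with a group mean below 7.5, as in the knockout for Ints6, Nabp1, Ell3 and Snapc4, is uncertain, because values near that level are compressed. At the probes standing for these genes only 1 knockout array exceeded 7.5, so they passed the filter through the wild-type arrays.

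**Figure D5:**
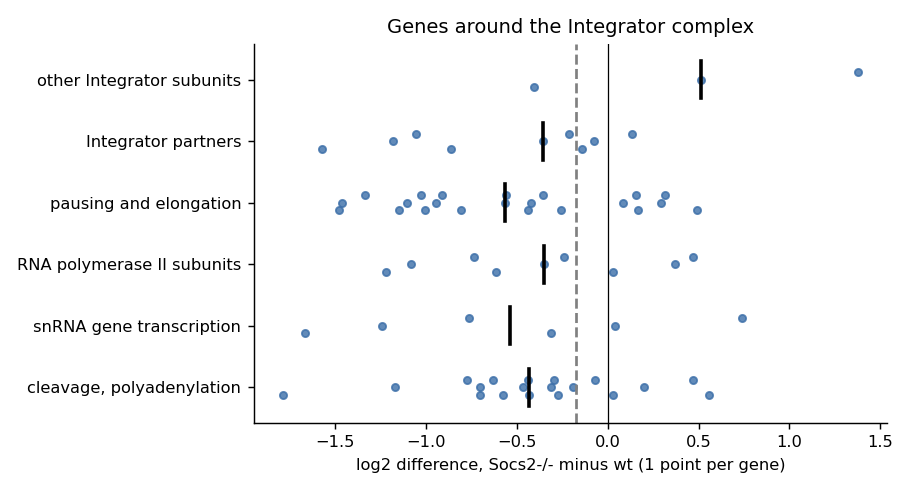
Log2 difference, Socs2-/- minus wt (horizontal axis), of the tested genes of 6 lists, 1 point per gene; black bars are list medians and the dashed line is the median of -0.18 over all 8543 genes. The list medians run from -0.56 for pausing and elongation to 0.51 for the other Integrator subunits, and 0 genes passed the adjusted threshold.

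Pearson r over the 9 arrays between the brightest Ints6 probe and the probe standing for each other subunit ran from -0.65 for Ints10 and -0.53 for Ints1 to 0.24 for Ints2. The 5 genes of 8543 with the highest r were Asah2 (0.94), Wdr1 (0.94), Top2b (0.93), Ugcg (0.92) and Wdfy1 (0.91). These are descriptions over 9 arrays, largely set by the genotype difference for which the Ints6 probe was chosen. Other probes of Ints6 itself correlated with it as low as -0.037, so the values do not tell whether subunits vary together, and with so many genes and so few arrays high values arise readily. In bulk RNA of sorted cells, fewer cells of a type and less RNA per cell cannot be told apart.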

How the data were processed

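RNA of sorted LSK cells (250 pg of total RNA per array, amplified with a NuGEN WT-Ovation Pico kit and labelled with biotin, per the labels' protocols) was measured on Illumina mouse bead arrays. The authors deposited processed values used here as log2 intensities. Per the submitters' processing notes they used lumi, an R package. Its version, and how values were transformed and normalized, were not given in the sources used here. A table of non-normalized values was not used, because its 18 columns carry chip positions that no label pairs with a sample. The detection filter, background correction and slide could therefore not be examined.

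Genes were named from the platform annotation: 34885 of 45281 probes had 1 symbol, 18 several and 10378 none, and 0 symbols changed in the current gene table. The genotype fit used limma 3.58.1 (two-sided moderated test of lmFit and eBayes, p adjusted by Benjamini-Hochberg) in R 4.3.3, over 13333 passing probes, and over 8543 genes with the probe of highest mean standing for its gene. The procedure was tested on simulated data. Groups and replicate numbers came from the sample titles. The replicate numbers were not taken to pair the arrays, since deviations of same-numbered arrays correlated between -0.074 and 0.039. Precision is limited by the number of arrays.

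The members, the lists and the filter were chosen with earlier results of these data known. Named genes were all members, Socs2, all genes of the lists of other subunits and of partners, and up to 3 genes with the smallest p from each further list. Of the list entries, 73 of 82 had a named probe; Ints15 and Brat1 were among those not analysed here. No probe sequences were used here.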

Additional observations from a re-analysis of the deposited data

Results flagged for a closer look

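In 30 groups of 4 or 5 arrays (15 passing probes in each genotype), 2 held an array far from the rest. Chance gives about 1 group in 20, so this count is near that rate, and the groups share arrays. Both flagged groups concern Ints2 in the knockout. At probe ILMN_2664494 knockout array 4 read 9.57, and the nearest of the other knockout arrays read 7.26. At the clone probe ILMN_1239634 knockout array 3 read 9.75, and the nearest other value was 6.89.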

How the results depend on the processing

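The members' median difference of 0.23 was -0.061 without knockout arrays 1 and 2, and ran from -0.19 to 0.50 with single arrays left out (without knockout arrays 1 and 3). The difference of the brightest Ints6 probe ran from -3.06 to -2.41 with single arrays left out and from -3.05 to -2.35 (values below 7.5 set to 7.5) otherwise. Because its genotypes do not overlap, leaving out arrays could not turn its sign, so the kept sign is no support. Calls over all genes were 1, but 2 with no filter on dim probes, 3 with values above 7.5 on all 9 arrays, and 0 with arrays centred on their median, with values below 7.5 set to 7.5, with the replicate block, with a variance trend and without knockout arrays 1 and 2. With single arrays left out they ran from 0 to 7, the 7 without wild-type array 3. Pathway calls were 0 in every alternative run. The 868 genes at an unadjusted p under 0.05 were 1491 with no filter, 339 above 7.5 on all 9 arrays and 547 without knockout arrays 1 and 2, and 656 to 1238 with single arrays left out. The 3 pathway genes at that level were 1 above 7.5 on all 9 arrays, 6 with the mean of passing probes, and 5 with values set to 7.5 and without knockout arrays 1 and 2, and 2 to 8 with single arrays left out. List medians moved by more than the spread between replicates to 0.061 for cleavage and polyadenylation without knockout arrays 1 and 2, to -0.34 for other Integrator subunits and 0.16 for pausing and elongation above 7.5 on all 9 arrays, and to -0.14 for small nuclear RNA transcription with no filter. With single arrays left out, medians ran from -0.54 to -0.090 for cleavage and polyadenylation, -1.0 to -0.27 for partners, 0.10 to 0.98 for other subunits, -0.75 to -0.12 for pausing and elongation, -0.48 to -0.24 for polymerase subunits and -0.75 to -0.40 for small nuclear RNA transcription. The stricter filter tests fewer genes, no filter tests more, and leaving out arrays uses fewer samples; otherwise the cause was not tested. The replicate block left 629 genes at an unadjusted p under 0.05 and the Ints6 probe at -2.57; 2 of the 4 knockout arrays correlated best with the wild-type array of their own number. Correction of the non-normalized values with a detection filter and the slide as a block was not run.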
